A study of Homo sapiens with 6 samples.

Results

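The microRNA processing and mRNA silencing machinery is described here by 39 genes, from the enzymes that cut microRNA precursors to those that degrade the silenced messenger RNA. The genes were taken by symbol from a list set by function, and all 39 were among the 28979 gene IDs counted. They were measured by RNA sequencing in MDA-MB-231, an established mesenchymal breast cancer line, with 3 libraries labelled Ang and 3 labelled Con. Per the series design, these cells received exosomes (secreted vesicles) of hypertrophic or of normal cardiomyocytes, and the aim was to find the targets of microRNAs. No label says which vesicles the names Ang and Con stand for, so both groups are called by their labels. No treatment, time, dose or genotype is labelled for either group, and all libraries come from the same line. Separate cultures are not stated, and every p-value below rests on how far these 6 libraries vary, which may be technical variation. In bulk libraries fewer cells with a transcript and less of it per cell cannot be told apart.

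MicroRNAs are made in steps. A primary transcript is cut in the nucleus by DROSHA with its partner DGCR8, the hairpin is exported by XPO5, and DICER1 cuts it to a short duplex, one strand of which is loaded into an Argonaute protein. The Argonaute pairs with the target through the seed of the microRNA and recruits a GW182 scaffold (TNRC6A, TNRC6B or TNRC6C). The scaffold brings the PAN2-PAN3 and CCR4-NOT deadenylases, which shorten the poly(A) tail, after which the cap is removed by DCP2 and the body is degraded by XRN1.

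The machinery is itself a host of microRNAs. RefSeq (GRCh38.p14) places 11 mature microRNAs from 7 microRNA genes inside 5 members, DGCR8, DDX5, DICER1, DIS3L2 and SND1, all on the strand of the member, and 6 of the 11 lie in annotated exons of GENCODE 29. The 6 in exons are shown. A hairpin that lies within a messenger RNA removes it when cut, and the DGCR8 hairpins are known to be cut by DROSHA and DGCR8 themselves. In the sequences the seed (bases 2 to 8 of the mature microRNA) is in capitals. The 11 seeds were all different, so none of these microRNAs form a seed family. The first 3 lie in DGCR8, with miR-3618 in the 5′ UTR on the plus strand at chr22:20085797-20085818 and both arms of miR-1306 in a coding exon at chr22:20086072-20086129. The other 3 lie in DDX5 between chr17:64500775 and chr17:64501250, on the minus strand. None of these 3 lies wholly within the coding sequence or a UTR of DDX5, so loss of its messenger RNA is not implied. No counts of the microRNA genes are used here.
hsa-miR-3618: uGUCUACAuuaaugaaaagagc
hsa-miR-1306-5p: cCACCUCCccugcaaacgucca
hsa-miR-1306-3p: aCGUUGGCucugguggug
hsa-miR-3064-5p: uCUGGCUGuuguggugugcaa
hsa-miR-3064-3p: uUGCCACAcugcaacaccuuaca
hsa-miR-5047: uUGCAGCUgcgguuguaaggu

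Library totals ran from 3369212 to 5437190 counts, and 14547 genes passed the low-count filter. Of 12 genes listed to check the cell line, 10 passed the filter. VIM, the mesenchymal filament, averaged 1032 CPM in Ang and 928 CPM in Con, and KRT8, an epithelial keratin, 987 CPM in Ang and 955 CPM in Con. The epithelial gene EPCAM averaged 9.76 CPM in Ang and 9.83 CPM in Con, while CDH1 (E-cadherin) and ESR1 (the oestrogen receptor) were under the filter, CDH1 with 10 counts in Ang and 14 in Con and ESR1 with 4 in Ang and 3 in Con. CPM is the count relative to the library total, scaled between libraries with TMM normalisation. Of 10 cardiomyocyte markers 7 were in the files and 1, NPPA, passed the filter. The summed CPM of those 7 was 7.56 to 13 in the Ang libraries and 7.18 to 19.2 in the Con libraries. NPPA had 89 counts in Ang and 135 in Con, NPPB 5 and 14, TNNI3 1 and 9, and ACTN2 5 and 8. MYH6 had 0 counts in Ang and 1 in Con, and MYL2 and RYR2 each had 1 count in Ang and 0 in Con. In CPM the groups overlapped for each of these 7. Summed leukocyte markers were 3.76 to 6.30 CPM in Ang and 4.43 to 8.62 CPM in Con, endothelial markers 11.2 to 14.2 CPM in Ang and 15.4 to 18.1 CPM in Con, and fibroblast markers 4.40 to 6.81 CPM in Ang and 6.76 to 10.6 CPM in Con. Their part in the results was not tested. One library stood apart. Over 250 pairs of a noncoding gene lying under a coding gene on the opposite strand, the median ratio of counts per base, noncoding over coding, was 32.9 to 35.4 in the Ang libraries, 39.3 and 41.1 in Con replicates 1 and 3, and 23.2 in Con replicate 2. No strand-marking step is described in the labels, and how the counter treated strand is not given in the sources used here. Which strand the reads counted for a member came from was not tested.

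No member passed the test between Ang and Con. By edgeR's quasi-likelihood test with Benjamini-Hochberg adjustment over all genes, 0 of 39 members passed an adjusted p of 0.05, and percent called over all 14547 genes was 0. DESeq2 and limma-voom also called 0 members. At an unadjusted p under 0.05 edgeR, DESeq2 and limma-voom each counted 1 member, CNOT4, against 3.4% of all genes by edgeR, and CNOT4 was higher in Ang; 0 members were lower in Ang at that p, against 1.98% of all genes. Among the members 15 of 39 log2 fold changes (Ang minus Con) were above 0, against 49.2% of all genes, and 24 were below 0, or 61.5%, against 50.8% of all genes, with a median of -0.09 against -0.01 over all genes. That lean was lost without Con replicate 2: 20 of 39 members had a positive value, against 49.6% of all genes, and the median was 0.022, against -0.0032 over all genes. In that fit 0 members were called, against 0.269% of all genes, and 1 member, CNOT4, had an unadjusted p under 0.05, against 11% of all genes.

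Most members were bounded to within 2-fold, given the spread of these 6 libraries, which may be technical. For 31 of 39 members the 95% interval of the fold stayed inside 2-fold up and down, as it did for 64.2% of all genes. Log2 fold changes had a median SE of 0.25 over members and 0.30 over all genes. The 8 members whose interval reached past 2-fold were TARBP2, AGO1, AGO4, TNRC6B, DIS3L2, CNOT4, DCP1B and EDC4, each with a group mean of at most 19.4 CPM.

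**Figure D1:**
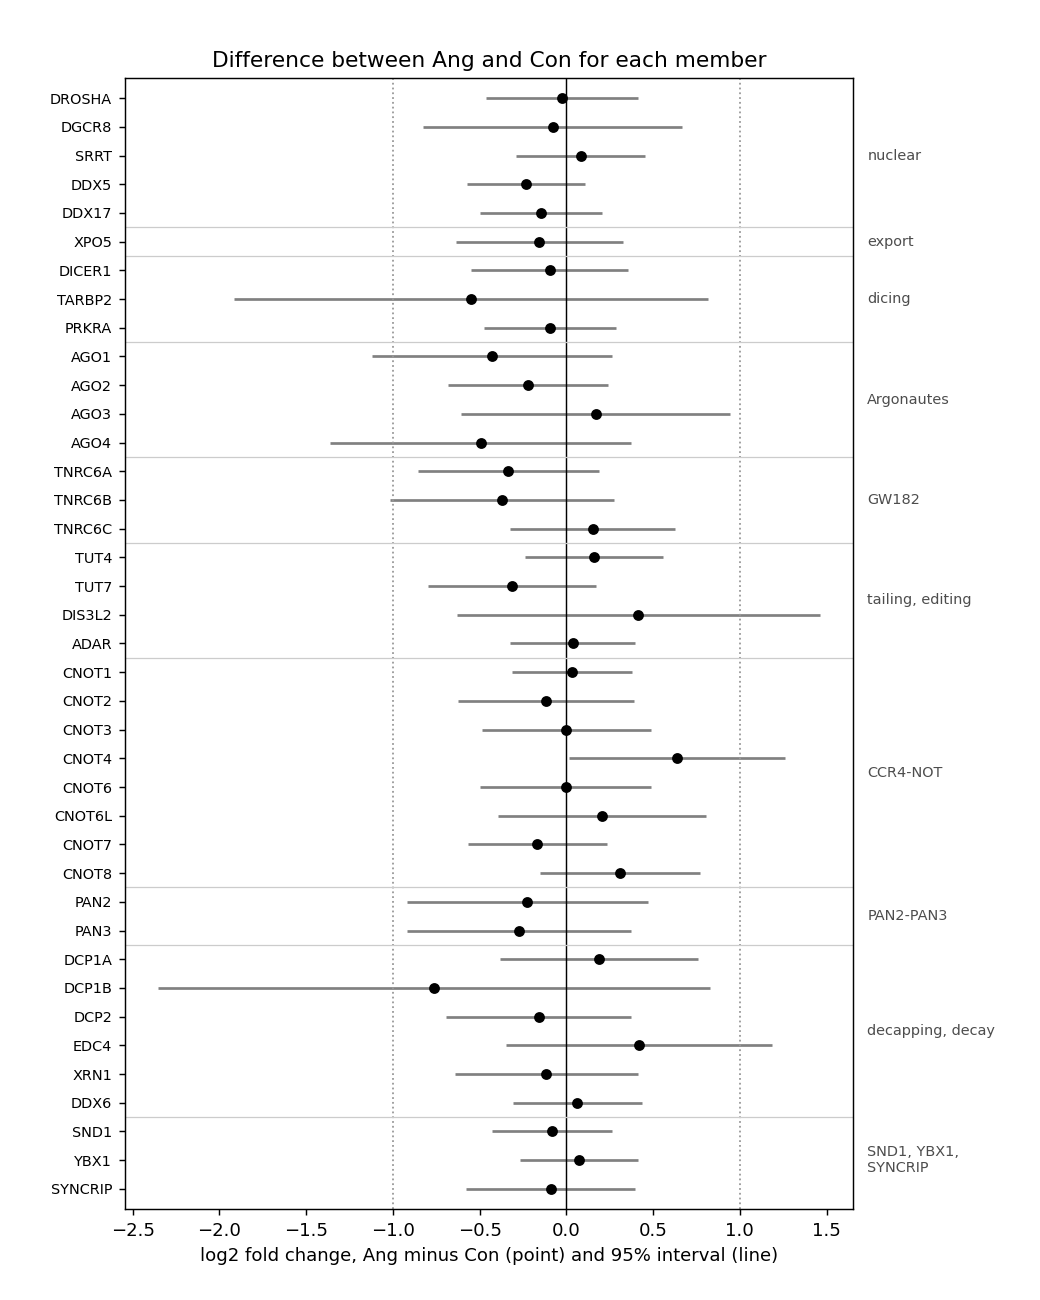
Log2 fold change of each of the 39 members, Ang minus Con (points), with its 95% interval (lines), by edgeR's quasi-likelihood fit over all genes; dotted lines mark 2-fold. The interval of 38 members includes 0, and that of CNOT4, from 0.02 to 1.26, does not.

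Levels of different members were compared per kilobase of exon (CPM per kb, all 6 libraries, mean ± SD, n = 6), using the union of the exons in GENCODE 29. They spanned 722-fold. YBX1, an RNA-binding protein known to sort microRNAs into vesicles in human cells, was highest at 330 ± 31.1 CPM per kb, at percentile 99.8 of the 11107 tested protein-coding genes. It alone held 27.7% of all counts of the members. DDX5 followed at 31.6 ± 3.63 CPM per kb, SND1 at 22.1 ± 3.64, PRKRA at 17.0 ± 2.71, SRRT at 15.0 ± 0.888, DDX17 at 12.7 ± 2.23 and CNOT1 at 12.4 ± 1.45. The median member had 3.20 CPM per kb, close to the 3.53 CPM per kb of the median tested protein-coding gene, and 17 of 39 members lay above that gene. These levels are of counts as deposited. Over the 250 pairs above, noncoding genes held 32.5 times the counts per base of the coding gene opposite them (pooled median). Whether the counts of a member are of its own messenger RNA was not tested, so levels and percentiles are of counts only. The median was 3.67 CPM per kb over the 17 members whose exons overlap a gene on the other strand and 2.34 CPM per kb over the 22 without such overlap. The lowest were AGO3 at 0.456 ± 0.114, DIS3L2 at 0.479 ± 0.110 and DCP1B at 0.498 ± 0.340 CPM per kb. Only 2 of the 38 neighbouring pairs in this order had library values that did not overlap, YBX1 above DDX5 and CNOT8 above DDX6, so the order of other neighbours does not hold beyond their spread. With the longest transcript as the length, the first 6 places were unchanged and CNOT2 moved by 12 places.

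**Figure D2:**
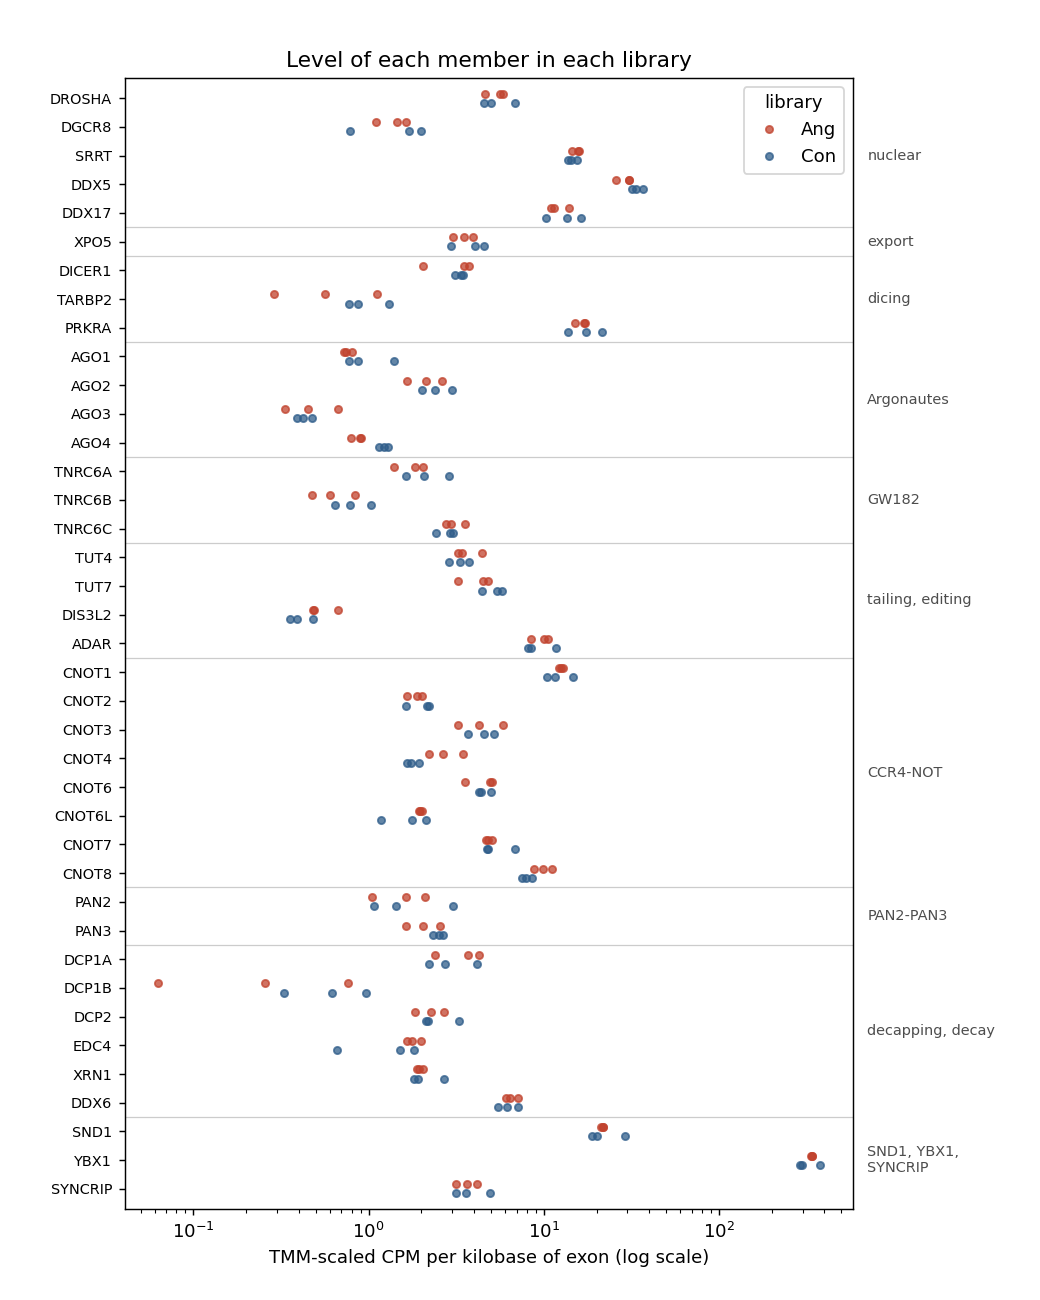
TMM-scaled CPM per kilobase of exon (log axis) of each member in each of the 3 Ang and 3 Con libraries, 1 point per library, members grouped by step. YBX1 stands above all others, the Argonautes average at most 2.30 CPM per kb, and Ang and Con points overlap except in DDX5, AGO4, CNOT4 and CNOT8.

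The sequence before the start site is shown for YBX1, the highest member, and for CNOT4, the member at an unadjusted p under 0.05. Each is the 250 bases before the start that RefSeq gives (GRCh38.p14), written 5′ to 3′ on the gene's strand. Capitals mark the CCAAT box, the TATA box (searched as TATAAA) and the GC box (searched as GGGCGG) on either strand. The end of the CNOT4 window lies past the start that GENCODE 29 gives. Such windows were found for 35 of the 39 members. YBX1 held 3 CCAAT matches and 1 GGGCGG match, and CNOT4 held 4 GGGCGG matches. CCAAT was in 16 of 35 member windows (45.7%) and in 33.0% of all 27305 windows, TATAAA was in 1 (2.86%) and in 11.1%, and GGGCGG was in 29 (82.9%) and in 42.3%. The median GC content was 66.4% in the member windows and 58% in all, and the motif shares were not corrected for it. A match is a description of the letters only.
YBX1, chr1:42682168-42682417 (+): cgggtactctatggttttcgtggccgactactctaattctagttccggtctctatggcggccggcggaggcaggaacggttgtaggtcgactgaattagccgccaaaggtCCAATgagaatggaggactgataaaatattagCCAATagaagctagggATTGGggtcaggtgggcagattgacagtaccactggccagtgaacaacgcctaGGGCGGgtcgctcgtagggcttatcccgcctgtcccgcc
CNOT4, chr7:135510103-135510352 (-): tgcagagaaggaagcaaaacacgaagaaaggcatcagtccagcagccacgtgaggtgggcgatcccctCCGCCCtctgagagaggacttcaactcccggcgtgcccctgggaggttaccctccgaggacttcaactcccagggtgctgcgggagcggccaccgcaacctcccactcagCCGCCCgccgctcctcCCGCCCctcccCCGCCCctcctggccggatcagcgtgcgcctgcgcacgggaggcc

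DROSHA, the nuclease that cuts primary transcripts, had 44.0, 45.6 and 36.1 CPM in Ang replicates 1 to 3, and 35.5, 53.1 and 39 CPM in Con replicates 1 to 3. Con replicate 2 was highest and Con replicate 1 lowest, so the Ang values lay inside the Con range. DGCR8 (chromosome 22, 20080232 to 20111877), its double-stranded RNA-binding partner and the lowest member of this step per kilobase, had 12, 8.07 and 10.7 CPM in the Ang libraries, against 5.70, 12.5 and 14.5 CPM in the Con libraries. The groups overlapped, with a log2 fold change of -0.08 ± 0.38 (SE). In the same way, values in parentheses after a gene below are its log2 fold change, Ang minus Con, ± SE. DDX5 (chromosome 17, 64499616 to 64508199), a helicase that works with DROSHA, had 192, 226 and 227 CPM in Ang and 249, 272 and 235 CPM in Con. All 3 Ang libraries lay below all 3 Con libraries, and the log2 fold change was -0.23 ± 0.17, an interval of 0.673-fold to 1.08-fold, with an adjusted p of 0.999 by edgeR's quasi-likelihood test. Its paralogue DDX17 averaged 121 ± 15.4 CPM in Ang and 133 ± 29.8 CPM in Con (SD, n = 3 each), and the groups overlapped. SRRT, which links capped transcripts to the processing enzymes, averaged 74.6 ± 3.41 CPM in Ang and 70.4 ± 4.61 CPM in Con.

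In 4 of 39 members all Ang libraries lay on one side of all Con libraries, against 8.16% of all genes, a share near the background. DDX5 and AGO4 lay below (4.54% of all genes) and CNOT4 and CNOT8 above (3.62% of all genes). Summed over the 5 nuclear members, the Ang libraries had 433, 494 and 461 CPM and the Con libraries 492, 576 and 460 CPM.

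XPO5, the export receptor of precursors, had 33.5, 25.7 and 30.0 CPM in Ang and 34.6, 38.7 and 25.2 CPM in Con, with overlapping groups (-0.15 ± 0.25). DICER1 (chromosome 14, 95086228 to 95158010), the cytoplasmic nuclease, averaged 38.1 ± 11.2 CPM in Ang and 40.7 ± 2.15 CPM in Con; its lowest Ang library was replicate 2 at 25.2 CPM, without which its log2 fold change turned from -0.10 to 0.13. Its interval ran from 0.685-fold to 1.28-fold. The partners of DICER1 differed widely in level. PRKRA (PACT) had 68.1, 66.8 and 59.2 CPM in Ang and 69.1, 53.9 and 85.2 CPM in Con, and the Con libraries spread on both sides of the Ang libraries. TARBP2 (TRBP) had 1.17, 4.54 and 2.31 CPM in Ang and 3.17, 3.55 and 5.35 CPM in Con. Its 83 counts over 6 libraries left an interval of 0.265-fold to 1.76-fold, which includes a 2-fold lower level.

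All 4 Argonautes, which hold the mature microRNA, were low per kilobase. AGO2 (chromosome 8), the Argonaute known to slice targets, led at 2.30 CPM per kb, followed by AGO4 at 1.04, AGO1 at 0.882 and AGO3 at 0.456 CPM per kb. AGO2 had 26.1, 41.4 and 33.5 CPM in the Ang libraries and 38.0, 47.3 and 31.8 CPM in the Con libraries, and the groups overlapped (-0.22 ± 0.23). AGO4, AGO1 and AGO3 lie in that order on the plus strand of chromosome 1 between 35808172 and 36072500. AGO4 had 6.46, 6.56 and 5.78 CPM in Ang, against 8.87, 8.28 and 9.44 CPM in Con. Its Ang libraries all lay below its Con libraries, with a log2 fold change of -0.49 ± 0.44 and an adjusted p of 0.999 by edgeR's quasi-likelihood test. AGO1 had 10.3, 11.1 and 10.1 CPM in Ang and 12, 19.3 and 10.7 CPM in Con. Con replicate 2 was far above the other 5 libraries for AGO1 (-0.43 ± 0.35), and without it the value was -0.12 ± 0.40. AGO3 had 14.1, 7.06 and 9.53 CPM in Ang and 8.24, 8.96 and 10.1 CPM in Con, with the widest spread in Ang (0.17 ± 0.39), and without Ang replicate 1 its value turned to -0.13. The paralogues share sequence, and how the authors' counting treated reads that fit several of them is not given in the sources used here.

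Of the GW182 scaffolds, which join Argonautes to deadenylases, TNRC6C was highest per kilobase (2.94 CPM per kb) and TNRC6B lowest (0.729 CPM per kb). TNRC6A had 23.8, 18.2 and 26.3 CPM in Ang and 37.4, 26.9 and 21.1 CPM in Con, TNRC6A being highest in Con replicate 1 (-0.33 ± 0.26, or -0.09 without that library). TNRC6B had 12, 16.6 and 9.53 CPM in Ang and 20.7, 15.7 and 12.9 CPM in Con (-0.37 ± 0.33). Both overlapped between groups. TNRC6C had 30.8, 32.8 and 39.6 CPM in Ang and 26.8, 32.5 and 33.7 CPM in Con (0.15 ± 0.24), also with overlap.

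The enzymes that modify or remove precursors showed no common direction. TUT4 and TUT7 add uridines to precursors such as that of let-7. TUT7 had 32.3, 30.3 and 21.7 CPM in Ang and 38.9, 29.8 and 36.2 CPM in Con (-0.31 ± 0.25), and TUT4 averaged 59.8 ± 10.5 CPM in Ang and 53.6 ± 7.06 CPM in Con (0.16 ± 0.20). The groups overlapped for both. DIS3L2, the exonuclease that degrades the uridylated precursor, had 7.63, 5.55 and 5.49 CPM in Ang and 5.49, 4.06 and 4.40 CPM in Con. Ang replicate 3 and Con replicate 1 were about equal for DIS3L2, and its 131 counts in all left an interval of 0.647-fold to 2.75-fold. ADAR, the adenosine deaminase that edits double-stranded RNA, had 82.2, 103 and 97.1 CPM in Ang and 79.0, 113 and 82.1 CPM in Con, with an interval of 0.799-fold to 1.31-fold.

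CCR4-NOT, the main deadenylase complex, held the member with the smallest unadjusted p. CNOT4, a ubiquitin ligase associated with the complex (chromosome 7, 135361795 to 135510127), had 53, 96 and 64 counts in Ang replicates 1 to 3 and 55, 80 and 39 counts in Con replicates 1 to 3. Scaled, these were 15.6, 24.2 and 18.5 CPM in Ang, against 11.6, 13.5 and 12.3 CPM in Con. Every Ang library lay above every Con library, the means being 19.4 ± 4.40 CPM in Ang and 12.5 ± 0.970 CPM in Con (SD, n = 3 each). The log2 fold change was 0.64 ± 0.32, or 1.01-fold to 2.40-fold, with an unadjusted p of 0.0445 and an adjusted p of 0.999 by edgeR's quasi-likelihood test. Over the alternatives it stayed between 0.45 and 0.77 with an adjusted p of at least 0.410, so CNOT4 did not pass in any of them; without Con replicate 2 it was 0.71 ± 0.34.

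The catalytic subunits come in pairs of paralogues. CNOT8 had 34.3, 43.6 and 39 CPM in Ang and 31.3, 33.5 and 29.6 CPM in Con, all Ang libraries being above all Con libraries (0.31 ± 0.23, adjusted p 0.999 by edgeR). Its paralogue CNOT7 averaged 52.9 ± 2.13 CPM in Ang and 59.7 ± 13.1 CPM in Con, with overlap (-0.17 ± 0.20). CNOT6 averaged 29.8 ± 5.56 CPM in Ang and 30.0 ± 2.68 CPM in Con. CNOT6L had 18.8, 18.4 and 18.2 CPM in Ang and 16.5, 19.9 and 11 CPM in Con, the Ang libraries being almost equal and inside the Con range. CNOT1, the scaffold of the complex and its highest member, had 132, 136 and 140 CPM in Ang and 125, 160 and 113 CPM in Con (0.03 ± 0.18). CNOT2 and CNOT3, its structural subunits, had log2 fold changes of -0.12 ± 0.26 and 0.00 ± 0.25. Summed over the 8 members, the Ang libraries had 356, 358 and 343 CPM and the Con libraries 321, 370 and 332 CPM.

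The PAN2-PAN3 deadenylase starts tail shortening. PAN2, the catalytic subunit, had 7.63, 15.4 and 11.8 CPM in Ang and 7.81, 22.1 and 10.4 CPM in Con, with Con replicate 2 far above the rest. PAN3, its adaptor, had 16.1, 10.3 and 13.0 CPM in Ang and 16.1, 14.7 and 17.0 CPM in Con. The groups overlapped for both, at -0.23 ± 0.35 for PAN2 and -0.27 ± 0.33 for PAN3. Without Con replicate 2 the PAN2 value turned to 0.37 ± 0.41.

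Among the decapping and decay genes, DDX6, the helicase that represses translation and promotes decapping, was highest per kilobase (6.38 CPM per kb). DDX6 had 73.1, 81.2 and 69.6 CPM in Ang and 81.1, 70.3 and 62.6 CPM in Con (0.06 ± 0.19). DCP1B, an activator of the decapping enzyme and the lowest of this group, had 4, 14 and 1 counts in Ang and 21, 9 and 9 counts in Con. With so few counts its interval ran from 0.196-fold to 1.78-fold. Its paralogue DCP1A averaged 21.2 ± 5.87 CPM in Ang and 18.5 ± 6.11 CPM in Con. DCP2, the decapping enzyme, averaged 22.5 ± 4.27 CPM in Ang and 25.1 ± 6.42 CPM in Con. EDC4, the scaffold of decapping, had 10.3, 12.4 and 11 CPM in Ang and 9.29, 11.2 and 4.09 CPM in Con. Con replicate 3 was the low library for EDC4 (0.42 ± 0.39, or 0.12 without that library), and 21.2% of its exon bases are shared with another gene on the same strand. XRN1, the exonuclease that degrades the decapped body, averaged 23.4 ± 0.923 CPM in Ang and 25.5 ± 5.72 CPM in Con.

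YBX1, SYNCRIP and SND1 bind microRNAs or their complexes, and YBX1 and SYNCRIP are known as vesicle sorting factors. YBX1 (chromosome 1, 42682427 to 42702349) had 651, 652 and 653 CPM in Ang and 563, 725 and 573 CPM in Con. The Ang libraries were nearly identical and lay between the Con libraries, and the interval of the fold was 0.830-fold to 1.33-fold. Without Con replicate 2 the log2 fold change of YBX1 was 0.20 ± 0.10 instead of 0.07 ± 0.17, with an adjusted p of 0.464 by edgeR. YBX1 has processed pseudogenes, of which 4 in the files held 26 counts against 15839 for YBX1. SND1, a nuclease of silencing complexes, had 141, 138 and 141 CPM in Ang and 131, 190 and 122 CPM in Con, again with Con replicate 2 highest; its log2 fold change was -0.08 ± 0.18, and 0.14 without that library. SYNCRIP had 34.0, 30.0 and 25.7 CPM in Ang and 26.0, 29.6 and 40.6 CPM in Con (-0.09 ± 0.25). None of the 3 separated the groups.

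Con replicate 2 was the highest of the 6 libraries for 13 of 39 members, or 33.3%, against 19.9% of all tested genes, although the libraries had been scaled to each other. These 13 were DROSHA, DDX5, DDX17, XPO5, AGO1, AGO2, ADAR, CNOT1, CNOT2, CNOT6L, PAN2, SND1 and YBX1. The 39 members together held 0.221%, 0.232% and 0.215% of all counts in Ang replicates 1 to 3, and 0.218%, 0.278% and 0.203% in Con replicates 1 to 3. The library with the lowest noncoding over coding ratio thus had the largest share, and Con replicate 3, with the highest ratio, had the smallest. With the ratio as a term in the fit 0 members were called, against 0.0275% of all genes. The smallest unadjusted p of the members there were those of CNOT4 (0.0295) and DDX5 (0.0329), by edgeR's quasi-likelihood test. Both had an adjusted p of 0.696, and the log2 fold change of DDX5 was -0.22 ± 0.10. The median coefficient of variation was 13.4% in Ang and 20.8% in Con over the members, and over all genes it was 18.2% in Ang and 23.4% in Con.

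**Figure D3:**
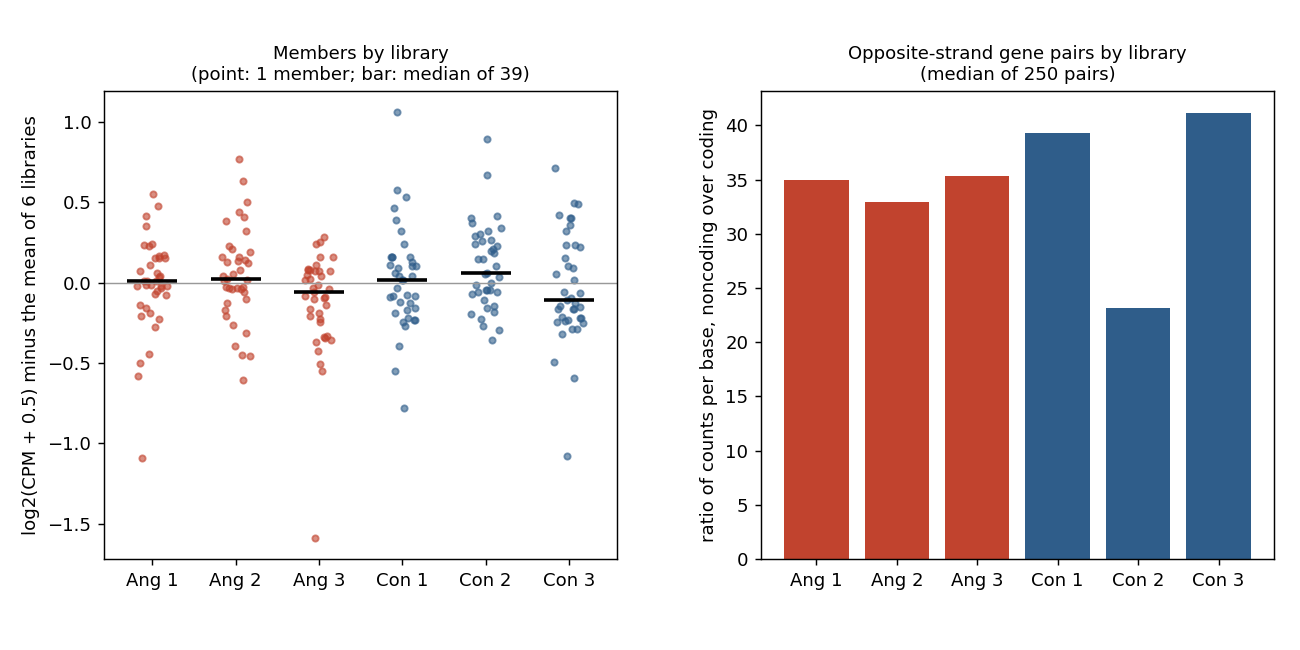
Left, log2(CPM + 0.5) of each of the 39 members minus its mean over the 6 libraries, with the median as a bar; right, the median ratio of counts per base, noncoding over coding gene, over 250 opposite-strand pairs in each library. Con replicate 2 has the highest member median and the lowest ratio, 23.2.

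In the deposited counts, genes on the other strand often held more counts per base than the members they overlap. In GENCODE 29 exons of 17 members overlap exons of an opposite-strand gene, by at most 12.9% of the member's exon bases, and 18 such partners of 16 members were in the files. Of these 18, 14 held more counts per base than the member and 7 held more counts in all. Among the 14 the overlap was only 8 bases for KDELR3, 12 for TRMT2A and 16 for ENSG00000270175. The share over all opposite-strand pairs was not computed, so the 14 of 18 has no background here. The pooled median ratio of 32.5 is of the 250 noncoding pairs, an unlike set. Those pairs needed 90% of the noncoding exon bases under a coding gene, which most of these 18 partners do not meet. Whether the counts of a partner are of its own transcript was not tested. The partner of DGCR8, ENSG00000243762, an antisense gene (chromosome 22, 20110821 to 20111875), lies with all of its exon bases under the 3′ UTR of DGCR8. It had 182, 191 and 139 counts in the Ang libraries and 173, 233 and 157 counts in the Con libraries, a total of 1075 against 257 for DGCR8. Per base this was 58.2 times the value of DGCR8, with an exact Clopper-Pearson interval of 50.7 to 66.9 at the 95% level. Such intervals cover counting error only.

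CNOT1 and CNOT3 each meet another gene tail to tail. SETD6 (chromosome 16, 58515479 to 58521181), a lysine methyltransferase gene, overlaps 1010 bases of the 3′ UTR of CNOT1 and had 6210 counts against 3369 for CNOT1, or 3.94 times per base. LENG1 overlaps the end of CNOT3 by 548 bases and had 1901 counts against 749, or 11.3 times per base. POLR1C, an RNA polymerase subunit gene that overlaps 348 coding bases of XPO5, had 7275 counts against 793, or 14.1 times per base. For SETD6 and CNOT1 the ratio was 4.0 to 4.5 in the Ang libraries, 4.1 and 5.9 in Con replicates 1 and 3, and 2.6 in Con replicate 2. The ratio of POLR1C to XPO5 was 14 to 17.1 in the Ang libraries, 13.8 and 22.2 in Con replicates 1 and 3, and 9.26 in Con replicate 2. This order was not shared by most pairs. The ratio was lowest in Con replicate 2 for 4 of the 18 partners, and in Ang replicate 1 for 7, LENG1 and ENSG00000227033 among them. These 7 include ties at a ratio of 0 for ENSG00000270175 and PJVK. Their ratio was 0 in every Ang library, and that of PJVK also in Con replicate 2.

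CHROMR, an antisense gene that overlaps PRKRA by 85 bases, held 5443 counts against 1619, and ENSG00000227033 over DIS3L2 held 408 against 131. FAXDC2, which overlaps CNOT8 by 163 bases of its 5′ UTR, held 2580 counts against 865. Partners with fewer counts per base than the member were CEP95 for DDX5, VPS37A for CNOT7, DICER1-AS1 for DICER1 and PJVK for PRKRA; each of these but PJVK overlaps the 5′ UTR of the member. None of the 7 partners with more counts than their member passed the test between Ang and Con (adjusted p 0.999 by edgeR's quasi-likelihood test). Their log2 fold changes ran from -0.14 for CHROMR to 0.23 for LENG1.

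**Figure D4:**
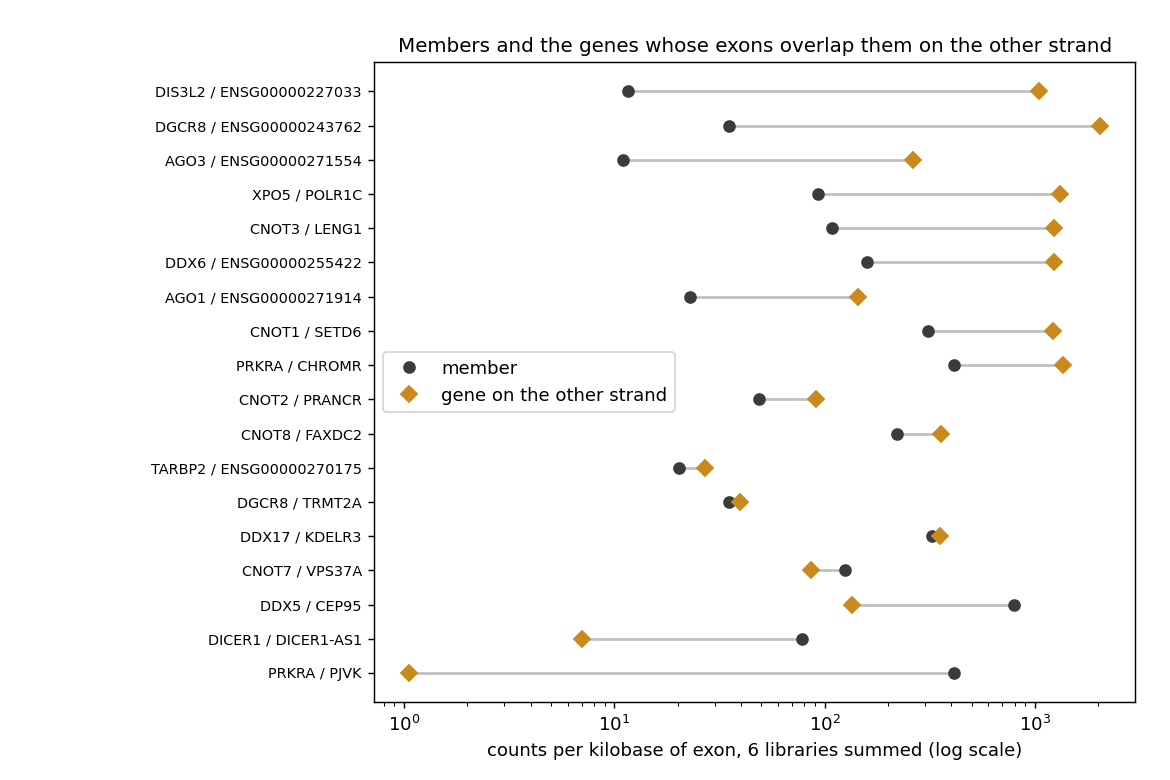
Counts per kilobase of exon over the 6 libraries (log axis) for each member (circle) and each gene in the files whose exons overlap it on the other strand (diamond). In 14 of 18 pairs the diamond lies to the right, by 58.2 times for DGCR8 and 90.3 times for DIS3L2.

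A further 76 genes of the pathway included none that passed the test. Of these 73 passed the low-count filter and 0 were called by edgeR's quasi-likelihood test. At an unadjusted p under 0.05 there were 2, LSM5 and EDC3, against 3.4% of all genes. The log2 fold change was above 0 for 39, against 49.2% of all genes, and below 0 for 34, or 46.6%, against 50.8%. Its median was 0.01, against -0.01 over all genes. LSM5, a subunit of the ring that aids decapping, had 32.3, 25.2 and 20.8 CPM in Ang and 19.4, 13.4 and 15.7 CPM in Con, with no overlap (0.69 ± 0.28). EDC3, an enhancer of decapping, averaged 6.97 ± 2.56 CPM in Ang and 12.4 ± 4.36 CPM in Con (-0.82 ± 0.40), and its groups overlapped. EXOSC9 and EXOSC6, subunits of the RNA exosome that degrades from the 3′ end, had log2 fold changes of -0.32 ± 0.18 and -0.78 ± 0.47, and only EXOSC6 of the pair had Ang libraries all below Con libraries. All 4 had an adjusted p of 0.999 by edgeR. LIN28A, the protein that directs TUT4 and TUT7 to the let-7 precursor, was under the filter with 6 counts in Ang and 10 in Con. BTG2 and ZFP36 were also under the filter. LIN28B, the paralogue of LIN28A, passed it with 60 counts in Ang and 86 in Con (-0.19 ± 0.50). LIN28B and the genes under the filter are named after their values were seen.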

How the data were processed

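The authors deposited 1 table of unnormalised gene counts for each library, keyed by Ensembl ID. HTSeq 0.9.1, DESeq 1.39.0 and GRCh38 are named in the submitters' processing notes, while the aligner, annotation and strand setting were not given in the sources used here. Libraries were made from poly(A) RNA with random priming, per the labels' protocols. Totals of 3369212 to 5437190 counts put the limit of a count of 0 (3 counts) at 0.552 to 0.890 CPM of these raw totals, before filtering and TMM scaling.

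Members and lists were chosen with earlier results of these data known. Counts were filtered (filterByExpr), TMM-scaled and tested over all genes, Ang against Con, with edgeR 4.0.16 in R 4.3.3 (robust quasi-likelihood, Benjamini-Hochberg, threshold 0.05); the fit was tested on simulated data. Alternatives were RLE scaling, no filter, 1 CPM in 3 libraries, DESeq2 1.42.0, limma-voom (limma 3.58.1), a replicate block, a strand ratio term, each library left out, and the longest transcript as length. Exons came from GENCODE 29 and were intersected with bedtools 2.31.1; strand pairs needed 90% of the noncoding exon bases under 1 coding gene of at least 300 counts, with 0.5 added. Values in every library were given for the highest and lowest member of each step, the 10 smallest p, members whose groups did not overlap, and members of steps with under 3 members; DROSHA and SND1 were added after their values were seen. Pathway genes were the 4 of smallest p, the genes under the filter, and LIN28B. No 2 libraries of the same group agreed within sampling noise (chi-square per gene 3.60 to 12.8).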

Additional observations from a re-analysis of the deposited data

How the results depend on the processing

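Under RLE scaling, no low-count filter, at least 1 CPM in 3 libraries, DESeq2, limma-voom and the replicate block, called genes, called members and called pathway genes stayed at 0, members with a positive value numbered 14 to 16, and the member median ran from -0.09 to -0.05. The strand ratio term gave 4 called genes, 0 of them members. Leaving out 1 library gave 0 to 40 called genes, the 40 when Con replicate 2 was dropped and 1 when Con replicate 1 was, with 0 called members, 13 to 20 positive members and a member median of -0.13 to 0.022 (0.022 when Con replicate 2 was dropped); the cause was not tested. The longest transcript as length moved the median member level to 3.81 CPM per kb, against 3.20. Of 505 alternative values of members, 33 changed sign without a call, and the smallest adjusted p was 0.410. Same-numbered Ang and Con libraries deviated from their group means with correlations of 0.037, 0.068 and 0.036, against -0.070 to 0.030 for differently numbered ones; each library correlated best with its own number, but all are under 0.1, so the numbers were not taken as pairs. The replicate block gave 0 called genes, 574 at an unadjusted p under 0.05 and a member median of -0.07. Depth limits the low members: DCP1B had 58 counts and TARBP2 83 over 6 libraries.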
